A study of Mus musculus with 12 samples.

Results

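SOX7 was switched on for 24 h in haemogenic endothelium of the mouse, an endothelium that gives rise to blood, and RNA was compared with that of untreated cells of the same hour. The libraries were chosen by their labels and by no measured value. They are 2 libraries with doxycycline (Dox) for 24 h and 2 without Dox at 24 h, 4 of the 12 libraries of the series. The starting line was iSox7, an embryonic stem cell line derived from Ainv18, in which Dox turns on a Sox7 transgene. All groups came from FLK1+ cells of embryoid bodies at day 3.5, kept for 48 h in liquid blast medium with VEGF, IL6 and conditioned medium, then with 1 µg/ml Dox or none. The other 8 libraries, with and without Dox at 6 and 12 h, entered the estimate of the spread and the comparisons across hours. All groups derive from 1 line, and no cells without the transgene were given Dox, so an effect of Dox itself was not tested. Nothing in the labels says that the 2 libraries of a group were separate cultures, so p-values measure the spread between these libraries, which may be technical.

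SOX7 belongs to the SOXF transcription factors, which act in early endothelium and in arterial vessels. In the transition from endothelium to blood, the transcription factor RUNX1 turns on blood genes while endothelial genes are turned off, and SOXF factors decline as blood cells form. The series asks how SOX7 affects the targets of RUNX1 in that transition.

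The authors deposited read counts for 41128 genes, with 30682961 and 14109804 counts in the Dox libraries and 14023523 and 33136142 in the untreated libraries of 24 h. Counts were tested with edgeR's quasi-likelihood test in 1 fit over the 12 libraries. A gene was called when its p, adjusted over the 15347 tested genes by the Benjamini-Hochberg method, was under 0.05. Levels are in CPM, counts relative to the scaled library total, given for Dox replicates 1 and 2 and then for untreated replicates 1 and 2. Effects are log2 fold changes, Dox over untreated, ± SE. In the text, "rose" and "fell" are used of called genes alone, for cells with Dox relative to untreated cells. In bulk RNA, fewer cells of a type and less RNA per cell cannot be told apart, which holds for every cell type marker below.

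Of the 15347 tested genes, 1690 were called (11.0%). With Dox 690 of them were higher (4.50%) and 1000 lower (6.52%). These shares are the background for all counts of list members below. The falls were larger than the rises, with a median log2 fold change of -0.65 among the genes called lower and 0.34 among those called higher. A change of at least 2-fold was called in 442 genes (2.88%), of which 72 rose (0.469%) and 370 fell (2.41%), and 20 were at least 4-fold higher and 110 at least 4-fold lower. Genes called lower were also less abundant, with a median mean log2 CPM of 3.94, against 6.17 for those called higher and 4.47 for all tested genes. Genes called lower together held 69921 and 69577 CPM in the Dox libraries, against 89221 and 88340 CPM in the untreated libraries. The libraries of both groups did not overlap in any of the 1690 called genes, nor in 49.6% of all tested genes, so a lack of overlap alone says little here. Over all tested genes the median log2 fold change was -0.009. The count of calls was 1084 without untreated replicate 1 and 1088 without untreated replicate 2. Calls of higher genes numbered 439 without Dox replicate 2 and 392 without untreated replicate 1, and calls of lower genes 618 without untreated replicate 2.

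**Figure D1:**
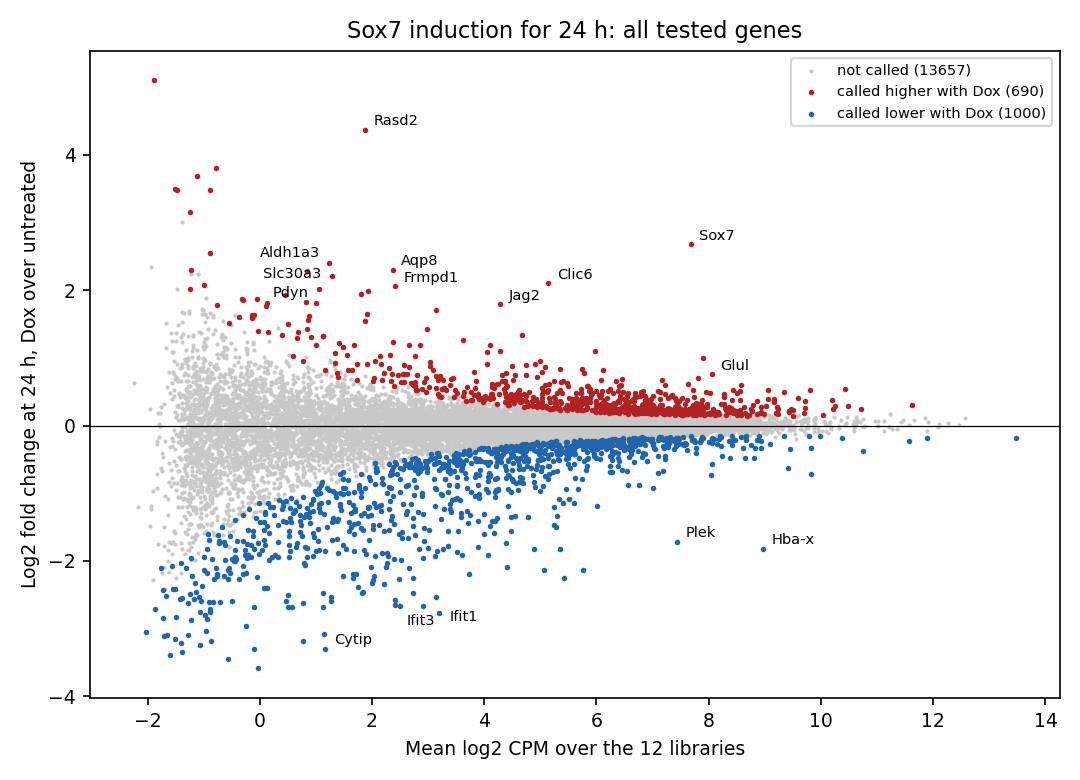
Log2 fold change at 24 h (Dox over untreated, y axis) against mean log2 CPM (x axis) for the 15347 tested genes, 1 point a gene. The 690 genes called higher and the 1000 called lower are coloured, and some of the genes with large changes are labelled. More genes fell than rose by at least 2-fold (370 and 72), and the falls lie mostly at low and middle abundance.

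Endothelial genes were abundant in all 4 libraries, though those given here do not set haemogenic endothelium apart from other endothelium. Cdh5, the cadherin of endothelial junctions, stood at 696 and 741 CPM in the Dox libraries, against 516 and 504 CPM in the untreated libraries. All Dox libraries were above all untreated ones, a log2 fold change of 0.50 ± 0.054 (adjusted p = 5.7e-08). Kdr, which encodes the FLK1 receptor used to sort the cells, had 459.9 and 481 CPM in the Dox libraries, against 438 and 439 CPM in the untreated libraries and was not called. List sums here and below cover tested members alone. Of 9 mast cell markers 2 were tested. They summed to 0.624 and 0.215 CPM in the Dox libraries, against 2.29 and 0.850 CPM in the untreated libraries. Of 11 lymphoid markers 3 were tested. Their sums were 13.6 and 11.8 CPM in the Dox libraries, against 7.86 and 8.53 CPM in the untreated libraries, mostly from Ebf1, described below. Cd3e and Pax5 of lymphocytes and Tpsab1 and Fcer1a of mast cells had no count in any library of 24 h. Of 12 endoderm markers 6 were tested. They summed to 7.78 and 7.61 CPM in the Dox libraries, against 7.94 and 7.40 CPM in the untreated libraries. Of these 6, edgeR, DESeq2 and limma-trend called 0, with 0 at an unadjusted p under 0.05. Marker genes of mesenchyme were abundant, which is described with the matrix genes below.

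Sox7 is the check on the induction. It had 337 and 331 CPM in the Dox libraries, against 52.5 and 52.1 CPM in the untreated libraries. Both Dox libraries stood far above both untreated ones, a log2 fold change of 2.68 ± 0.067 (adjusted p = 1.4e-22), or 6.39-fold. Counts per gene do not separate the transgene from the endogenous gene. Sox13, a SOX factor of another subgroup, rose to 70.3 and 73.8 CPM in the Dox libraries, against 49.8 and 51.0 CPM in the untreated libraries, with no overlap (0.51 ± 0.071, adjusted p = 3.5e-06). Of 14 tested SOX family genes 3 rose (Sox7, Sox13 and Sox6) and 2 fell (Sox2 and Sox18), with a median log2 fold change of 0.03, against -0.009 over all tested genes. Sox17, the remaining SOXF gene, had 58.9 and 66.2 CPM in the Dox libraries, against 60.3 and 59.8 CPM in the untreated libraries and was not called (0.050 ± 0.070). The smaller of these calls rest on single libraries, since 2 members were called without Dox replicate 1 and 3 without untreated replicate 1. Sox6 (0.38 ± 0.078) had an adjusted p of 0.062 without Dox replicate 1. Sox2 (-0.92 ± 0.26) had one of 0.22 without Dox replicate 1 and 0.11 without untreated replicate 1. Sox18, the SOXF gene of vessels and lymphatics, changed little (-0.19 ± 0.063), and its call was lost without any 1 of the 4 libraries, with adjusted p-values of 0.17 and 0.19 without Dox replicates 1 and 2 and 0.35 and 0.062 without untreated replicates 1 and 2.

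Genes that interferon induces fell as a group. Interferons are signals of viral infection that act through the JAK kinases and a complex of STAT factors and IRF9, which binds an element in the promoters of antiviral genes. Of 32 tested effector genes 30 fell, 25 of them at least 2-fold, against 6.52% of all tested genes that were called lower. Their median log2 fold change was -2.13. Together they held 243 and 252 CPM in the Dox libraries, against 631 and 674 CPM in the untreated libraries. In this list and in those of interferon sensing, antigen presentation, myeloid cells, leukocyte receptors and signalling, chemokines, lipid mediators, lysosomes and haem below, edgeR, DESeq2 and limma-trend each called 0 members higher. At an unadjusted p under 0.05, 1 C-type lectin gene and 2 chemokine genes were higher, and none of the other members of these lists. The leading members are shown with the 250 bases before their start, because these windows hold the letters that interferon factors bind. Capitals mark every match of the core GAAANNGAA of the interferon-stimulated response element on either strand, and matches can overlap one another. Sequences run 5′ to 3′ on the strand of the gene and come from RefSeq on GRCm38.p6.
Ifit1, chr19:34640639-34640888, plus strand: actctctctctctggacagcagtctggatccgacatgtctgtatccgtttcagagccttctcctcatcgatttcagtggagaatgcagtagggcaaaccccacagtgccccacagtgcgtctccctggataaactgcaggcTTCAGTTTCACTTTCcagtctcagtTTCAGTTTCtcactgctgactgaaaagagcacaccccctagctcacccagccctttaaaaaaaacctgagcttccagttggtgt
Ifit3, chr19:34583279-34583528, plus strand: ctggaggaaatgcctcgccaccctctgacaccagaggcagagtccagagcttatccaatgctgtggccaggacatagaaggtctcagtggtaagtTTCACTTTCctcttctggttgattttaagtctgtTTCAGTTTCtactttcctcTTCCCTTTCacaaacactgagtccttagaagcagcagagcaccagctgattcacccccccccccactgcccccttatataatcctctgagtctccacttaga
Isg15, chr4:156200819-156201068, minus strand: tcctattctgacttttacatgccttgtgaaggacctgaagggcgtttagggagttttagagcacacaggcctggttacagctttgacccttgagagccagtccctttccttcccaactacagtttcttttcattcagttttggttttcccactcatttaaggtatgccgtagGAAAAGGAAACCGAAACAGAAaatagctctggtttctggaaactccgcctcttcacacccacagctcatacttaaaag
Rsad2, chr12:26456453-26456702, minus strand: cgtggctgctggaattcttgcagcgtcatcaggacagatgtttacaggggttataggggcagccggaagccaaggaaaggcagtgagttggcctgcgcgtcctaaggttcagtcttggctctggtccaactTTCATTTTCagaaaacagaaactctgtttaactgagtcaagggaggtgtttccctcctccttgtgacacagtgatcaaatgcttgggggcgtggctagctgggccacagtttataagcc
Irgm1, chr11:48871421-48871670, minus strand: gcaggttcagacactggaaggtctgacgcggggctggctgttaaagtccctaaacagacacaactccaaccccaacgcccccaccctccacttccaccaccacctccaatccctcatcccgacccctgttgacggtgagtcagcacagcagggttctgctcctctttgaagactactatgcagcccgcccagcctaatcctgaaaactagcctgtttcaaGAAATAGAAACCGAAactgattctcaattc

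In Ifit1 the matches begin 109, 103 and 84 bases before the start, in Ifit3 155, 121 and 102, and in Isg15 78, 72 and 66. Rsad2 has 1 match, 119 bases before the start, and Irgm1 has matches 30 and 24 bases before it. These distances are counted from RefSeq starts. For Irgm1 that start differs from the deposited one by -263 bases in genome coordinates, so its distances hold for the RefSeq start alone. Windows of 300 bases, from 250 before to 50 after the start, were at hand for 10953 of the 15347 tested genes (71.4%), and for 24 of the 32 interferon effectors. Of those 24 windows 16 hold the core (66.7%), against 6.88% of all tested windows, 19% of the 274 windows of genes called at least 2-fold lower and 9.09% of the 55 windows of genes called at least 2-fold higher. The effectors were picked as genes that interferon induces, so their share tells nothing of the effect of Dox. Effectors called at least 2-fold lower that have a window are counted among the 274 too, so the shares overlap. Only 24 of 32 effectors have a window, which is too few to check the list as a whole, and the shares describe the windows at hand. A match is a string of letters and shows no binding.

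Ifit1, whose protein binds foreign RNA, had 5.91 and 5.38 CPM in the Dox libraries, against 35.4 and 42.1 CPM in the untreated libraries. Ifit3, its partner, had 3.38 and 3.16 CPM in the Dox libraries, against 20.6 and 21.4 CPM in the untreated libraries. Both Dox libraries of each gene lay far below both untreated ones, with log2 fold changes of -2.77 ± 0.14 (adjusted p = 1.4e-14) and -2.67 ± 0.16 (adjusted p = 2.6e-13). Rsad2, which encodes the antiviral enzyme viperin, fell to 13.7 and 15.6 CPM with Dox, against 58.1 and 64.7 CPM without (-2.09 ± 0.11, adjusted p = 3.7e-14). Isg15, a ubiquitin-like protein joined to other proteins, fell to 5.16 and 3.16 CPM, against 23.3 and 25.3 CPM without Dox (-2.47 ± 0.17). Usp18, the protease that removes ISG15 and damps the interferon receptor, fell with it, at 4.27 and 2.08 CPM with Dox and 17.7 and 17.2 CPM without (-2.34 ± 0.20). Of the immunity-related GTPases, Irgm1 stood at 19.3 and 19.9 CPM in the Dox libraries, against 53.5 and 60.7 CPM in the untreated libraries (-1.56 ± 0.094), and Oasl2, of the oligoadenylate synthetase family, changed by -2.54 ± 0.26. The other 2 members were not called. Values of Ifit, Oas, Gbp and Irg genes are uncertain where near-identical copies share reads.

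**Figure D2:**
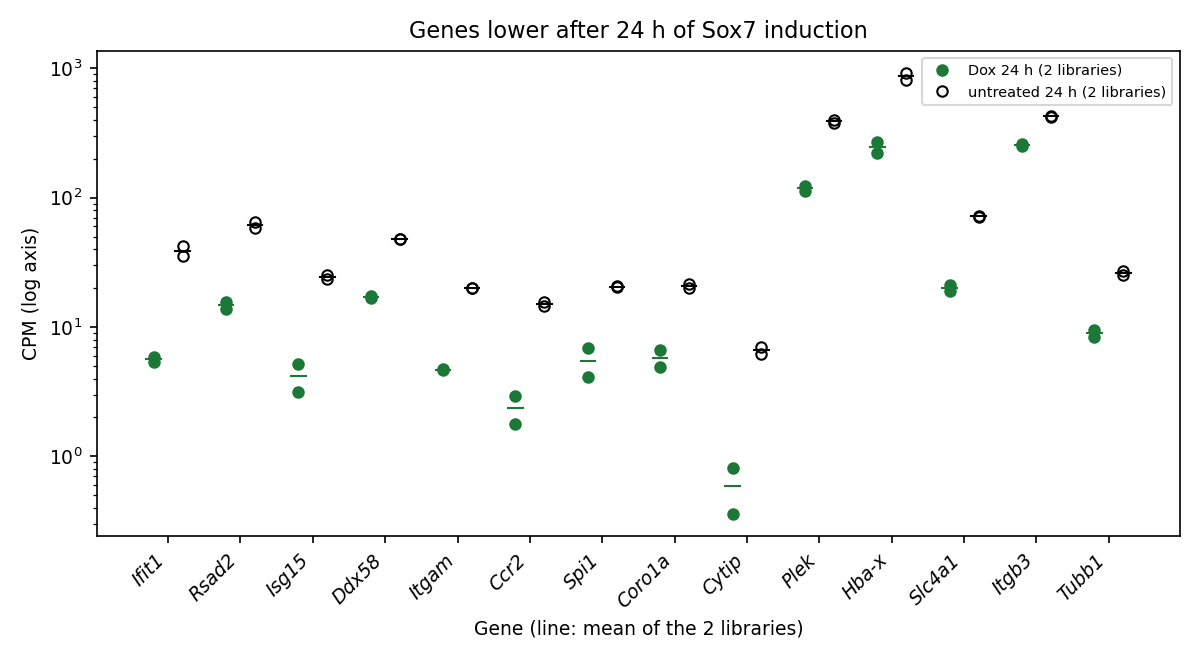
CPM (log axis) of 14 genes that fell at 24 h, with the 2 Dox libraries (filled circles, left of each pair) and the 2 untreated libraries (open circles, right). In each gene both Dox libraries lie below both untreated libraries, from Ifit1 at 5.91 and 5.38 CPM with Dox and 35.4 and 42.1 CPM without to Plek at 123 and 113 CPM with Dox and 378 and 397 CPM without.

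RNA sensors and several transcription factors of the interferon response also fell, while the receptor chains of type I interferon were not called. Of 26 tested genes of interferon sensing and signalling 14 fell, with a median of -0.37. The RNA sensors Ddx58 (RIG-I) and Ifih1 (MDA5) fell, with log2 fold changes of -1.48 ± 0.10 and -1.65 ± 0.17, Ddx58 to 17.4 and 16.9 CPM in the Dox libraries, against 48.0 and 47.7 CPM in the untreated libraries. Stat2, a transcription factor of the pathway, stood at 31.3 and 34.5 CPM in the Dox libraries, against 48.4 and 50.1 CPM in the untreated libraries, without overlap (-0.59 ± 0.079, adjusted p = 1.7e-06). Irf7, the factor that amplifies interferon production, had 1.25 and 0.574 CPM in the Dox libraries, against 5.15 and 6.98 CPM in the untreated libraries and a log2 fold change of -2.62 ± 0.35 (adjusted p = 2.0e-06). Irf9, which joins STAT factors in the complex, fell with -0.92 ± 0.12. Jak1, at 169 and 171 CPM in the Dox libraries, against 173 and 175 CPM in the untreated libraries, and Ifnar1, at 197 and 196 CPM in the Dox libraries, against 198 and 204 CPM in the untreated libraries, kinase and receptor chain of type I interferon, were not called. Ifnar2, the other chain, was not called either (-0.17 ± 0.10), and Ifngr1, a receptor chain of interferon gamma, was called lower (-0.32 ± 0.079), with an adjusted p of 0.11 when untreated replicate 2 was left out. Ifnb1, the gene of interferon beta, had 6 counts in all over the 4 libraries and was not tested. Leaving out Dox replicate 1 left 9 called members and leaving out untreated replicate 2 left 8.

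Antigen presentation genes were called in part, 8 of 16 lower with a median of -0.50. Psmb8, a subunit of the immunoproteasome, had 0.919 and 0.359 CPM in the Dox libraries, against 5.00 and 3.85 CPM in the untreated libraries (-2.59 ± 0.36, adjusted p = 3.8e-06). Leaving out Dox replicate 1, untreated replicate 1 or untreated replicate 2 left 3, 5 and 2 calls. Of 14 tested genes of the NF-kB pathway and the inflammasome, edgeR, DESeq2 and limma-trend called 0, with 1 higher and 2 lower at an unadjusted p under 0.05 and a median of 0.07.

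Genes of myeloid cells, the macrophages, monocytes and granulocytes, fell. Of 15 tested markers 13 fell, all 13 at least 2-fold, with a median log2 fold change of -1.66. They summed to 81.3 and 73.9 CPM in the Dox libraries, against 185 and 182 CPM in the untreated libraries, and Elane, Ctsg, Ly6c2, S100a8, S100a9 and Cebpe, markers of granulocytes and inflammatory monocytes, were too low to test, with no count of S100a9. Ccr2, the chemokine receptor of monocytes, had 2.96 and 1.79 CPM in the Dox libraries, against 14.7 and 15.6 CPM in the untreated libraries. Itgam, which encodes the integrin CD11b, had 4.63 and 4.74 CPM in the Dox libraries, against 20.1 and 20.0 CPM in the untreated libraries. Mpo, the peroxidase of granules, had 9.03 and 9.12 CPM in the Dox libraries, against 27.7 and 27.2 CPM in the untreated libraries. In all 3 genes the Dox libraries lay below the untreated ones, with log2 fold changes of -2.58 ± 0.19, -2.10 ± 0.17 and -1.60 ± 0.12 (adjusted p = 1.3e-11, 1.3e-10 and 6.7e-11). Spi1, which encodes PU.1, the transcription factor of these cells, fell to 6.83 and 4.09 CPM with Dox, against 20.8 and 20.3 CPM without (-1.82 ± 0.17, adjusted p = 1.5e-09).

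Receptors of the leukocyte surface fell as well. Of 15 Fc and paired immune receptors 13 fell, all at least 2-fold, with a median of -1.83 and summed levels of 65.7 and 64.9 CPM in the Dox libraries, against 159 and 169 CPM in the untreated libraries. These receptors come in pairs that activate through the adaptors Tyrobp and Fcer1g or inhibit. Tyrobp itself, at 2.46 and 3.30 CPM in the Dox libraries, against 9.37 and 11.2 CPM in the untreated libraries, fell (-1.90 ± 0.23), and so did Fcer1g (-1.68 ± 0.23). Of the inhibitory receptors, Lilrb4 stood at 9.82 and 10.4 CPM in the Dox libraries, against 29.7 and 29.4 CPM in the untreated libraries (-1.55 ± 0.13) and Sirpa, which reads CD47 on other cells, at 35.6 and 34.7 CPM in the Dox libraries, against 71.0 and 78.0 CPM in the untreated libraries (-1.09 ± 0.078). Among 10 C-type lectin receptors 6 fell, with Clec4n (Dectin-2) at 3.22 and 2.08 CPM in the Dox libraries, against 17.4 and 17.7 CPM in the untreated libraries (-2.65 ± 0.21) and Clec5a, a partner of Tyrobp, changing by -1.93 ± 0.21. Of 16 Toll-like receptors and partners 6 fell. Cd180 and Cd14, co-receptors for bacterial lipid, fell with -2.25 ± 0.23 and -2.20 ± 0.22, while Tlr4 was not called. Several of these genes have near-identical neighbours, so values of single members are uncertain.

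Inside the cell, 25 of 27 tested genes of leukocyte signalling and actin control fell, with a median of -1.12 and summed levels of 747 and 674 CPM in the Dox libraries, against 1263 and 1295 CPM in the untreated libraries. Plek, a substrate of protein kinase C in platelets and leukocytes, was the most abundant of them, at 123 and 113 CPM in the Dox libraries, against 378 and 397 CPM in the untreated libraries. The groups stood far apart (-1.71 ± 0.063, adjusted p = 3.0e-18). Coro1a, a regulator of leukocyte actin, had 6.70 and 4.88 CPM in the Dox libraries, against 20.2 and 21.5 CPM in the untreated libraries (-1.80 ± 0.14, adjusted p = 1.2e-10). Cytip, an adaptor that controls integrins, had the largest fall among genes averaging a log2 CPM of 1 or more, with 0.821 and 0.359 CPM in the Dox libraries, against 7.01 and 6.19 CPM in the untreated libraries (-3.29 ± 0.30, adjusted p = 1.8e-09). Ptprc, which encodes CD45, the phosphatase on all blood cells, had 5.09 and 4.45 CPM in the Dox libraries, against 12.9 and 15.5 CPM in the untreated libraries (-1.57 ± 0.18). Smaller falls were those of the kinase genes Syk (-0.74 ± 0.10) and Lyn (-0.42 ± 0.067). Of the phagocyte NADPH oxidase, which makes superoxide, the cytosolic subunits Ncf1 (-1.93 ± 0.16) and Ncf4 (-2.06 ± 0.32) fell and the membrane subunit Cybb was called (-1.33 ± 0.38), while Cyba, Rac1 and Rac2 were not. Ncf1 stood at 7.78 and 5.46 CPM in the Dox libraries, against 24.7 and 27.5 CPM in the untreated libraries. Leaving out any 1 of the 4 libraries ended the Cybb call, with adjusted p-values of 0.11 and 0.092 when Dox replicates 1 and 2 were left out in turn and 0.15 and 0.065 for untreated replicates 1 and 2.

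Most of the chemokine, chemokine receptor and cytokine receptor genes fell, and 1 cytokine receptor gene rose. Of 20 chemokines and chemokine receptors 13 fell. The macrophage chemokine gene Ccl9 had 29.1 and 21.4 CPM in the Dox libraries, against 120.3 and 127 CPM in the untreated libraries, and its neighbour Ccl6 had 11.6 and 14.1 CPM in the Dox libraries, against 46.6 and 48.3 CPM in the untreated libraries. Neither gene's groups overlapped (-2.26 ± 0.11 and -1.92 ± 0.12). Cxcl12, the stromal chemokine that holds progenitors in place, changed less, at 339.8 and 354 CPM in the Dox libraries, against 485 and 480.1 CPM in the untreated libraries (-0.48 ± 0.054, adjusted p = 1.1e-07), and its receptor Cxcr4 was not called. Of 19 haematopoietic cytokine receptors 12 fell and 1 rose. Csf2rb, the shared chain for IL3, IL5 and GM-CSF, had 36.0 and 31.2 CPM in the Dox libraries, against 85.4 and 86.3 CPM in the untreated libraries (-1.34 ± 0.089, adjusted p = 2.2e-12). Il10ra, a chain of the IL10 receptor, changed by -2.59 ± 0.28 and Epor, the erythropoietin receptor gene, by -0.76 ± 0.15. Il9r went the other way, with 5.78 and 6.39 CPM in the Dox libraries, against 2.00 and 1.34 CPM in the untreated libraries (1.94 ± 0.24, adjusted p = 6.8e-07). Enzymes and receptors of lipid mediators fell in 7 of 16 cases, among them Alox5ap and Alox5, which make leukotrienes (-1.44 ± 0.13 and -1.26 ± 0.21), and Ptafr, the receptor of platelet-activating factor (-1.89 ± 0.18). Lysosomal genes, which all cells use, moved less. Of 20 tested 8 fell, with a median of -0.10, led by the immune protease gene Ctsc at 53.6 and 55.3 CPM in the Dox libraries, against 121 and 127 CPM in the untreated libraries (-1.19 ± 0.064). Only 3 to 5 of these 8 were called without any 1 of the 4 libraries, 5 without Dox replicate 1, Dox replicate 2 or untreated replicate 1 and 3 without untreated replicate 2.

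Most red cell genes fell, and 1 embryonic globin and the water channel Aqp1 rose. Of 6 tested globin genes 5 fell and 1 rose. Hba-x, the embryonic alpha-like chain, stood at 269 and 221 CPM in the Dox libraries, against 921 and 814 CPM in the untreated libraries (-1.82 ± 0.12, adjusted p = 1.4e-12). Hbb-bh1, an embryonic beta-like chain, had 755 and 587 CPM in the Dox libraries, against 1160.3 and 1046 CPM in the untreated libraries (-0.71 ± 0.13, adjusted p = 0.00028), a gene that DESeq2 and limma-trend on RPKM did not call (adjusted p = 0.085 and 0.080). The adult genes Hba-a1, at 16.3 and 15.2 CPM in the Dox libraries, against 76.4 and 63.9 CPM in the untreated libraries, Hba-a2 and Hbb-bs fell with -2.13 ± 0.12, -3.08 ± 0.35 and -2.53 ± 0.22. Hba-a1 and Hba-a2 are near-identical and their values are uncertain. Hbb-y, the main embryonic beta-like chain, stood at 396 and 343 CPM in the Dox libraries, against 335 and 284 CPM in the untreated libraries, higher with Dox in all libraries (0.26 ± 0.075, adjusted p = 0.019). Its call was lost without Dox replicate 1 (adjusted p = 0.29) and without untreated replicate 2 (adjusted p = 0.40). DESeq2 and limma-trend on RPKM did not call it either (adjusted p = 0.29 and 0.26).

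Of 11 tested genes of the red cell membrane 7 fell and 1 rose. Slc4a1, the anion exchanger band 3, had 21.0 and 19.0 CPM in the Dox libraries, against 71.1 and 72.0 CPM in the untreated libraries. Both Dox libraries lay below both untreated ones (-1.83 ± 0.12, adjusted p = 3.6e-12). Aqp1, the water channel of red cells and also of endothelium, went the other way, at 79.8 and 79.2 CPM in the Dox libraries, against 47.9 and 45.1 CPM in the untreated libraries (0.78 ± 0.068, adjusted p = 6.8e-10). Of 18 genes of haem synthesis and iron handling 12 fell, with a median of -0.45. Alas2 begins haem synthesis in red cells and fell to 36.7 and 37.3 CPM with Dox, against 61.0 and 58.3 CPM without (-0.69 ± 0.11). Fech, which inserts the iron at the end of the pathway, changed by -0.40 ± 0.067. Slc25a37, the mitochondrial iron importer mitoferrin, stood at 33.1 and 31.1 CPM in the Dox libraries, against 70.9 and 71.8 CPM in the untreated libraries (-1.15 ± 0.13, adjusted p = 1.3e-07), and Steap3, the iron reductase of red cell precursors, changed by -1.23 ± 0.14. The transferrin receptor gene Tfrc changed by -0.45 ± 0.062.

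Platelet genes fell with 1 exception that endothelium shares. Of 20 tested markers of megakaryocytes and platelets 15 fell and 1 rose, with a median of -0.85 and summed levels of 2513 and 2607 CPM in the Dox libraries, against 2991 and 2989 CPM in the untreated libraries. The beta 3 integrin gene Itgb3 was abundant, at 259 and 252 CPM in the Dox libraries, against 421 and 429 CPM in the untreated libraries (-0.73 ± 0.060, adjusted p = 1.9e-10). Its partner Itga2b, which encodes CD41, changed by -0.49 ± 0.071. Tubb1, the platelet tubulin, had 8.44 and 9.55 CPM in the Dox libraries, against 27.2 and 25.3 CPM in the untreated libraries (-1.56 ± 0.13), and Gp1ba and Gp5, of the receptor complex for von Willebrand factor, changed by -1.01 ± 0.13 and -1.22 ± 0.19. Vwf itself, which platelets and endothelium both make, rose to 17.4 and 17.0 CPM with Dox, against 10.4 and 10.4 CPM without (0.73 ± 0.14, adjusted p = 0.00040). Other cell types had few called markers. Lymphoid genes had 3 tested members, 1 of them higher (Ebf1, 0.82 ± 0.15), and mast cell genes 2 tested members, 1 of them lower, a call not made without Dox replicate 1 or untreated replicate 1, nor by DESeq2 or limma-trend.

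**Figure D3:**
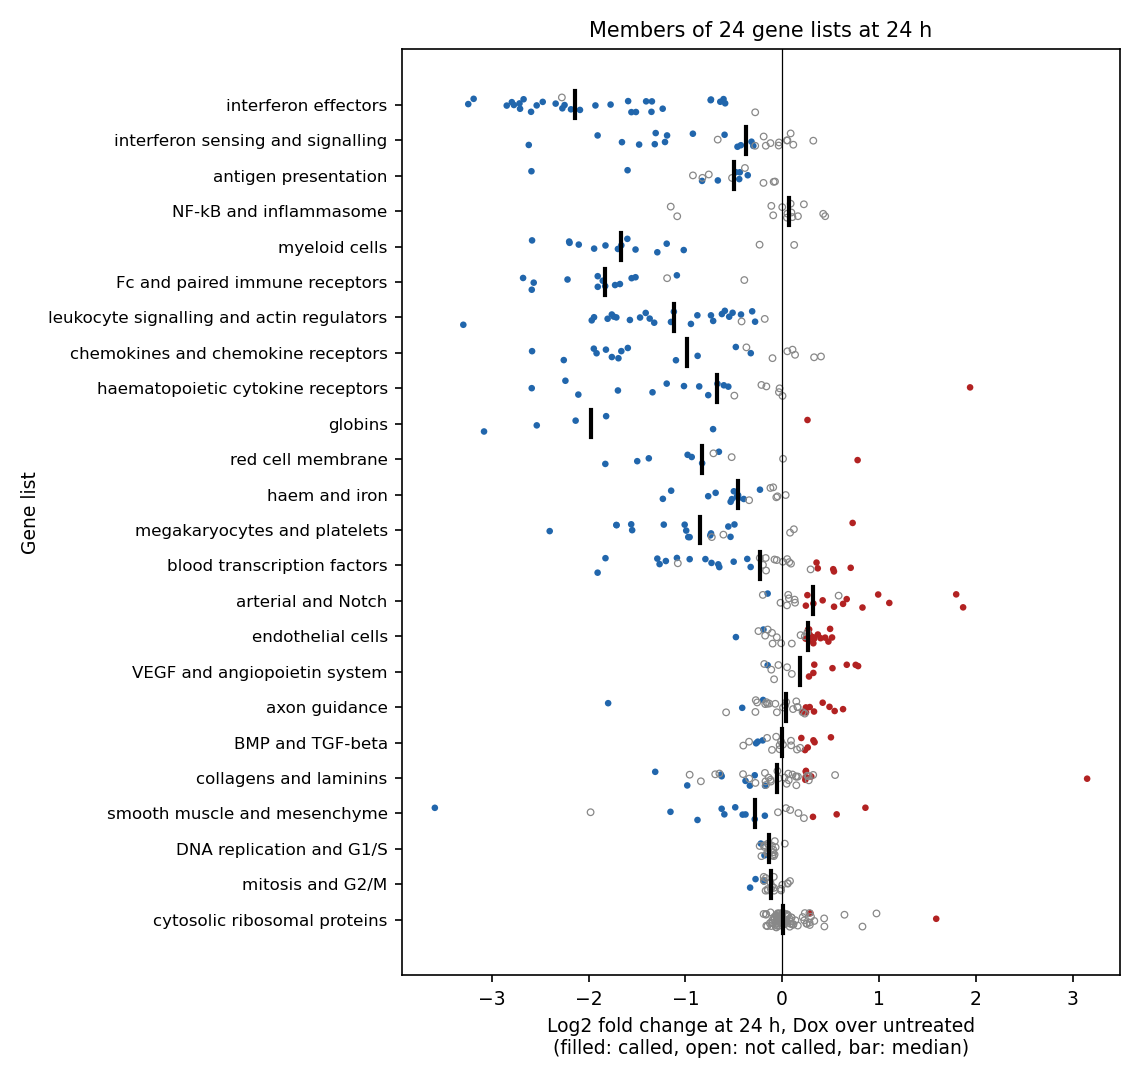
Log2 fold change at 24 h (Dox over untreated, x axis) of every tested member of 24 gene lists, 1 point a gene, filled where the gene was called and open where it was not. The bar in each row is the median of the list. Lists of interferon, leukocyte, red cell and platelet genes lie left of 0, arterial and endothelial lists lie mostly right of it, and cell cycle and ribosomal lists lie close to 0.

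Transcription factors of blood fell in larger part and rose in smaller part. Of 31 tested factors 14 fell and 5 rose, with a median of -0.23. Ikzf1, the lymphoid and myeloid factor Ikaros, had 30.9 and 31.6 CPM in the Dox libraries, against 63.8 and 68.3 CPM in the untreated libraries (-1.09 ± 0.087, adjusted p = 1.3e-10). Nfe2, of platelets and red cells, had 28.4 and 23.3 CPM in the Dox libraries, against 63.5 and 57.8 CPM in the untreated libraries (-1.20 ± 0.097), and Klf1, which turns on adult globin genes, had 8.28 and 7.25 CPM in the Dox libraries, against 18.0 and 19.6 CPM in the untreated libraries (-1.27 ± 0.16). Mecom, at 87.0 and 96.1 CPM in the Dox libraries, against 61.9 and 63.7 CPM in the untreated libraries, and Gata2, at 37.8 and 36.5 CPM in the Dox libraries, against 28.0 and 24.3 CPM in the untreated libraries, are progenitor and endothelial factors, and both rose (0.54 ± 0.071 and 0.53 ± 0.093). Gfi1 and Gfi1b, repressors through which RUNX1 turns off endothelial genes, went in opposite directions. Gfi1 stood at 8.83 and 7.97 CPM in the Dox libraries, against 4.43 and 5.64 CPM in the untreated libraries (0.71 ± 0.16, adjusted p = 0.0029), and Gfi1b at 14.2 and 12.3 CPM in the Dox libraries, against 22.7 and 19.8 CPM in the untreated libraries (-0.65 ± 0.14, adjusted p = 0.0016). With Dox replicate 1 left out Gfi1 had an adjusted p of 0.058, and with untreated replicate 1 left out one of 0.054, so that its call rests on both. Fli1, an ETS factor of endothelium and megakaryocytes, rose with 0.37 ± 0.067, and Tal1, shared by endothelium and blood, fell with -0.33 ± 0.060. Of 21 tested targets of RUNX1, 18 fell and 1 rose, with a median of -1.19, while Runx1 had 184 and 183 CPM in the Dox libraries, against 210.3 and 203 CPM in the untreated libraries and was not called (-0.17 ± 0.057, adjusted p = 0.053). It was called with no filter, with a replicate block and with the 24 h libraries alone (adjusted p = 0.037, 0.032 and 0.016). The RUNX1 target list overlaps the leukocyte and platelet lists. Among 17 ETS genes 4 rose, with Ets1 at 599 and 625 CPM in the Dox libraries, against 464 and 465 CPM in the untreated libraries (0.40 ± 0.052), and 2 fell, Spi1 and Elf4 (-0.48 ± 0.064).

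Arterial and Notch genes rose. In vessels, Notch receptors on 1 cell meet ligands of the Delta and Jagged families on its neighbour, and the HEY repressors carry the signal to an arterial programme. Of 21 tested members 12 rose and 1 fell, against 4.50% of all tested genes called higher, with a median of 0.32. Of the ligands, Jag2 had 32.5 and 33.5 CPM in the Dox libraries, against 9.44 and 9.50 CPM in the untreated libraries and Dll4 had 56.4 and 56.0 CPM in the Dox libraries, against 39.8 and 38.1 CPM in the untreated libraries. The Dox libraries of both stood above the untreated ones (1.80 ± 0.12 and 0.54 ± 0.071, adjusted p = 1.7e-12 and 1.6e-06). The receptor gene Notch4, which endothelium uses, had 82.2 and 96.6 CPM in the Dox libraries, against 58.1 and 54.2 CPM in the untreated libraries (0.67 ± 0.079, adjusted p = 2.3e-07), and Notch1 changed by 0.26 ± 0.055. Of the targets, Hey1 had 51.4 and 50.7 CPM in the Dox libraries, against 32.5 and 26.1 CPM in the untreated libraries (0.83 ± 0.091, adjusted p = 6.6e-08), and 8 members of the list were not called. The arterial connexin genes Gja4 and Gja5 form gap junctions between endothelial cells. Gja4 had 283 and 300.1 CPM in the Dox libraries, against 143 and 149.5 CPM in the untreated libraries (0.99 ± 0.061, adjusted p = 4.8e-13), and Gja5 had 133 and 136 CPM in the Dox libraries, against 57.1 and 66.7 CPM in the untreated libraries (1.11 ± 0.080, adjusted p = 1.6e-11). Efnb2, the arterial ephrin, rose by 0.42 ± 0.055 and Sema3g, an arterial semaphorin, by 0.63 ± 0.079. Nrp1 was the member that fell (-0.15 ± 0.048), a call lost without any 1 of the libraries, with adjusted p-values of 0.18 and 0.22 without Dox replicates 1 and 2 and 0.21 and 0.18 without untreated replicates 1 and 2. Venous and lymphatic genes were mixed, with 2 of 11 higher and 2 lower. Nrp2 rose (0.52 ± 0.054), and Lyve1, a hyaluronan receptor of lymphatic and early endothelium that macrophages also make, fell to 11.3 and 13.1 CPM with Dox, against 28.4 and 32.1 CPM without (-1.35 ± 0.10).

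**Figure D4:**
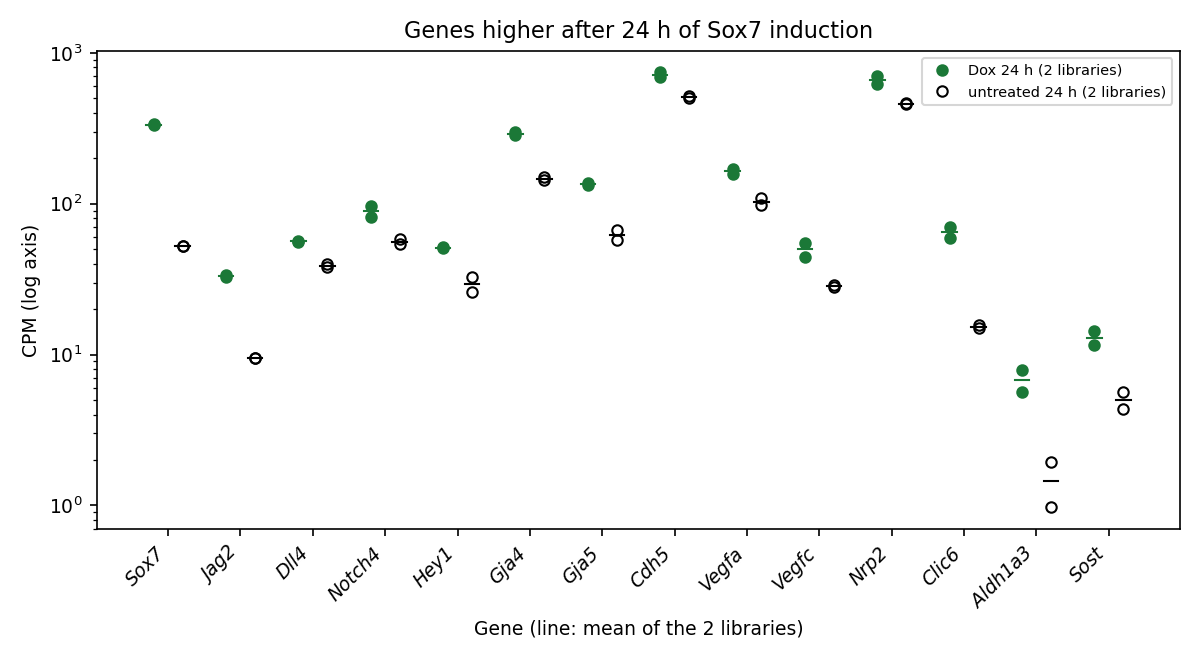
CPM (log axis) of 14 genes that rose at 24 h, with the 2 Dox libraries (filled circles, left of each pair) and the 2 untreated libraries (open circles, right). Both Dox libraries lie above both untreated libraries in each gene, by most in Sox7, Clic6 and Jag2.

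General endothelial markers rose by smaller steps. Of 28 tested 15 rose and 2 fell, with a median of 0.26 and summed levels of 5344 and 5544 CPM in the Dox libraries, against 4745 and 4694 CPM in the untreated libraries. Icam2 had 93.2 and 94.7 CPM in the Dox libraries, against 65.8 and 65.5 CPM in the untreated libraries (0.52 ± 0.070, adjusted p = 2.6e-06), and Pecam1, which encodes CD31, had 408 and 423 CPM in the Dox libraries, against 338 and 351 CPM in the untreated libraries (0.27 ± 0.053). Cd34, a surface marker of endothelium and of blood progenitors, fell to 279.7 and 271 CPM with Dox, against 382 and 385 CPM without (-0.48 ± 0.051, adjusted p = 4.1e-08). Of 20 cell junction genes 8 rose, among them Cxadr (0.59 ± 0.073), an adhesion receptor, and 5 were called without untreated replicate 2. Growth factors of vessels and some of their receptors rose. Vegfa stood at 158 and 169 CPM in the Dox libraries, against 108 and 98.2 CPM in the untreated libraries, Vegfc at 44.7 and 54.8 CPM in the Dox libraries, against 28.0 and 28.9 CPM in the untreated libraries and Angpt2 at 7.78 and 8.18 CPM in the Dox libraries, against 3.65 and 5.34 CPM in the untreated libraries. In each of the 3 both Dox libraries were above the untreated ones (0.67 ± 0.057, 0.78 ± 0.088 and 0.76 ± 0.19, adjusted p = 5.4e-10, 9.4e-08 and 0.0072). Angpt2 was not called when untreated replicate 1 was left out (adjusted p = 0.13). The receptor genes Flt1, Tek and Tie1 rose by 0.33 ± 0.052, 0.32 ± 0.056 and 0.28 ± 0.057. In all, 7 of 14 genes of this system rose and 1, Nrp1, fell.

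Guidance molecules, which steer axons and also vessel sprouts, rose in 9 of 31 tested cases and fell in 3. Efna1, an ephrin, rose by 0.49 ± 0.098 and Robo1, a receptor of SLIT proteins, by 0.33 ± 0.074. Sema4d, which leukocytes and platelets carry, fell to 10.7 and 8.90 CPM with Dox, against 33.0 and 36.0 CPM without (-1.80 ± 0.12, adjusted p = 3.7e-12). In the BMP and TGF-beta pathways 6 of 22 genes rose and 3 fell, with a median of -0.001. Over all tested genes 4.50% were called higher and 6.52% lower. DESeq2 called 6 members of this list higher and 2 lower, and limma-trend 4 and 2. Bmp6 (0.50 ± 0.10) was the ligand that rose, Acvrl1 (0.32 ± 0.069), the endothelial receptor ALK1, rose, and so did the target gene Id3 (0.34 ± 0.065). Id3 stood at 102 and 102 CPM in the Dox libraries, against 81.1 and 80.7 CPM in the untreated libraries, with no overlap. Among 20 Wnt genes 2 rose and 5 fell, and 4 in all were called without untreated replicate 2. The Wnt antagonist Frzb had 7.91 and 8.33 CPM in the Dox libraries, against 3.57 and 4.13 CPM in the untreated libraries (1.04 ± 0.19), and Sfrp1, an antagonist of the same family, had 16.1 and 16.2 CPM in the Dox libraries, against 23.1 and 23.9 CPM in the untreated libraries (-0.54 ± 0.10). Of 14 tested retinoic acid genes 2 rose and 12 were not called. This share of calls, 14.3%, is near the 11.0% of all tested genes. Aldh1a3, which makes retinoic acid, had 7.88 and 5.67 CPM in the Dox libraries, against 1.93 and 0.971 CPM in the untreated libraries (2.40 ± 0.31, adjusted p = 1.0e-06), and Cyp26a1, which degrades it, had 12.8 and 13.4 CPM in the Dox libraries, against 8.08 and 7.19 CPM in the untreated libraries (0.79 ± 0.13, adjusted p = 5.3e-05).

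Matrix genes moved in both directions. Of 43 tested collagens and laminins 6 rose and 8 fell. Those that fell included Col1a1, Col1a2, Col3a1 and Col5a1, which form fibrils, and Col6a3, of microfibrils. Col3a1 stood at 57.3 and 49.7 CPM in the Dox libraries, against 85.1 and 81.5 CPM in the untreated libraries (-0.62 ± 0.094, adjusted p = 1.4e-05) and Col6a3 at 6.67 and 5.02 CPM in the Dox libraries, against 14.0 and 15.7 CPM in the untreated libraries (-1.31 ± 0.17, adjusted p = 1.4e-06). Those that rose belong to basement membranes, Col4a1, Col4a2, Col18a1, Lama2, Lama4 and Lamb1. Lamb1 had 563 and 566 CPM in the Dox libraries, against 477 and 477 CPM in the untreated libraries (0.24 ± 0.047) and Lama4, the laminin chain of vessels, had 74.5 and 81.5 CPM in the Dox libraries, against 64.3 and 62.0 CPM in the untreated libraries (0.30 ± 0.064, adjusted p = 0.0014). This division was noticed in these values and no test of it was made. It leaves out the collagens and laminins called lower that are not named here. Limma-trend called 4 members of the list higher and 6 lower. The calls of Col4a1 (0.25 ± 0.055) and Col4a2 (0.24 ± 0.053) were lost without Dox replicate 2 (adjusted p = 0.099 and 0.057), that of Col4a1 also without untreated replicate 1 (0.068). The call of Lama2, a low gene, was lost without untreated replicate 2 (0.18).

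Markers of smooth muscle and mesenchyme, another cell type of these cultures, share Col1a1, Col1a2 and Col3a1 with the matrix list. Of 19 tested 10 fell and 3 rose, with summed levels of 9755 and 9832 CPM in the Dox libraries, against 10682 and 10421 CPM in the untreated libraries, and none of the 19 was at 0. Postn, a matrix protein of mesenchyme, had 548 and 574 CPM in the Dox libraries, against 778 and 790.4 CPM in the untreated libraries (-0.48 ± 0.065, adjusted p = 2.1e-06). Acta2 and Tagln, contractile genes of smooth muscle, were not called. Rgs5, a pericyte gene, rose to 46.8 and 45.6 CPM with Dox, against 25.3 and 25.6 CPM without (0.86 ± 0.10, adjusted p = 2.4e-07). Whether a change in the share of such cells has a part in the collagen values was not tested. Integrins, the receptors of matrix and of other cells, rose in 4 of 22 cases and fell in 9. Itgb2, the shared chain of leukocyte integrins, had 4.24 and 2.44 CPM in the Dox libraries, against 13.5 and 14.6 CPM in the untreated libraries (-1.99 ± 0.20), and Itga4, the homing integrin of blood progenitors, had 31.7 and 32.4 CPM in the Dox libraries, against 67.1 and 73.5 CPM in the untreated libraries (-1.14 ± 0.10). Itga2, a collagen receptor, rose to 6.96 and 9.76 CPM with Dox, against 3.07 and 3.85 CPM without (1.18 ± 0.19, adjusted p = 2.7e-05), and Itga7, a laminin receptor, rose by 0.59 ± 0.068. Without untreated replicate 1, 8 of the 13 integrin calls were made.

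Several of the largest rises were in genes outside the lists above. The GTPase gene Rasd2 had 12.2 and 10.2 CPM in the Dox libraries, against 0.858 and 0.394 CPM in the untreated libraries (4.37 ± 0.28, adjusted p = 1.3e-12). Clic6, of the chloride intracellular channel family, stood at 70.2 and 59.6 CPM in the Dox libraries, against 15.7 and 14.9 CPM in the untreated libraries (2.10 ± 0.097, adjusted p = 8.0e-16). Aqp8, a water channel, had 12.9 and 13.7 CPM in the Dox libraries, against 2.86 and 2.58 CPM in the untreated libraries and Frmpd1 had 11.8 and 12.4 CPM in the Dox libraries, against 2.86 and 2.91 CPM in the untreated libraries, with no overlap (2.30 ± 0.17 and 2.06 ± 0.17). Slc30a3, a zinc transporter known from synaptic vesicles, and the zinc-binding metallothionein genes Mt2 and Mt1 rose by 2.20 ± 0.33, 1.65 ± 0.20 and 1.11 ± 0.11. Mt1 stood at 38.5 and 38.3 CPM in the Dox libraries, against 18.8 and 17.1 CPM in the untreated libraries. Pdyn, the precursor of dynorphin peptides, and Map2, a microtubule protein of neurons, rose by 2.02 ± 0.32 and 1.54 ± 0.21. Of 8 tested neural cell markers 2 rose, Map2 and, by less, Nes (nestin, 0.37 ± 0.057). The other 6 were not called, and the median was 0.07. Sost, an inhibitor of Wnt signals in bone, had 14.2 and 11.5 CPM in the Dox libraries, against 4.36 and 5.67 CPM in the untreated libraries (1.33 ± 0.15, adjusted p = 1.0e-07). Myh7 and Myh6, neighbouring genes for cardiac myosin chains whose similar sequences make their values uncertain, rose by 1.99 ± 0.20 and 1.93 ± 0.38. Of 21 tested cardiac genes 3 rose and 4 fell, and Myl2 and Nppa had no count. Further large rises were those of Rnf165, Rhpn2, Fam222a, Stk32c and Hmcn1, with log2 fold changes from 1.26 to 1.70. Stk32c lost its call without Dox replicate 2 (adjusted p = 0.14) and untreated replicate 1 (0.061).

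Among genes averaging a log2 CPM of 8 or more, changes were smaller. Glul, glutamine synthetase, had 326 and 313 CPM in the Dox libraries, against 199 and 181 CPM in the untreated libraries (0.76 ± 0.057, adjusted p = 4.2e-11). Lifr, a cytokine receptor, had 424 and 434 CPM in the Dox libraries, against 273 and 293 CPM in the untreated libraries (0.60 ± 0.051), and Slc20a1, a phosphate transporter, changed by 0.51 ± 0.050. The 8 largest of the 46 falls at this abundance were those of Hba-x, Itgb3, Hbb-bh1, Postn, Cxcl12 and Cd34, given above, and of Hapln1, a linker of hyaluronan matrix, and Sepp1, the selenium carrier. Hapln1 had 315 and 337 CPM in the Dox libraries, against 491 and 509 CPM in the untreated libraries (-0.62 ± 0.068) and Sepp1 had 196 and 205 CPM in the Dox libraries, against 306 and 289 CPM in the untreated libraries (-0.57 ± 0.083). At a lower abundance, Abca1, which exports cholesterol and is a target of LXR receptors, had 72.2 and 68.1 CPM in the Dox libraries, against 35.5 and 36.9 CPM in the untreated libraries (0.95 ± 0.076, adjusted p = 9.7e-11). Of 7 tested LXR targets Abca1 was the only 1 that rose and 2 fell, with a median of -0.20. Both calls of lower genes were lost without Dox replicate 1 and also without untreated replicate 1.

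Several core programmes had a share of calls near or below the 11.0% of all tested genes. The mitochondrially encoded genes (42.9% called) and the amino acid response genes (30.4% called), given last, were above it. Called or not, 19 of 20 DNA replication genes and 18 of 22 mitosis genes had a log2 fold change below 0. DNA replication genes had 2 of 20 called lower and mitosis genes 3 of 22, with medians of -0.14 and -0.12. Without Dox replicate 2, 0 and 1 of these were called, and without untreated replicate 2, 0 and 0 (8 and 9 lower at an unadjusted p under 0.05 with all libraries, 2 and 2 called by DESeq2, and 2 and 4 by limma-trend). Cytosolic ribosomal protein genes had 2 of 76 called higher, mitochondrial ribosomal proteins 1 of 74 and nuclear-encoded respiratory chain genes 1 of 72 lower, with medians of 0.006, -0.04 and -0.07. These calls were not stable. Leaving out 1 library gave 0 to 3, 0 to 2 and 0 to 3 calls in the 3 lists, with the most without Dox replicate 1 and 0 in each list without Dox replicate 2 or untreated replicate 1. DESeq2 called 0 in each of them, while at an unadjusted p under 0.05 edgeR had 3, 1 and 0 members higher and 1, 3 and 10 lower. Of 7 tested mitochondrially encoded genes 3 were higher, led by mt-Nd2 at 1904 and 1467 CPM in the Dox libraries, against 1185 and 1132 CPM in the untreated libraries (0.54 ± 0.078), and 1 was called without Dox replicate 1 and 1 without untreated replicate 2. The mitochondrial share of counts was 2.10% and 1.75% in the Dox libraries and 1.72% and 1.69% in the untreated libraries, and its part in these calls was not tested. Of 13 p53 targets and 17 tested Hox genes, edgeR, DESeq2 and limma-trend called 0, with 3 of each at an unadjusted p under 0.05. Amino acid response genes controlled by ATF4 had 7 of 23 lower, led by the cystine transporter gene Slc7a11 at 14.8 and 17.4 CPM in the Dox libraries, against 33.4 and 38.4 CPM in the untreated libraries (-1.19 ± 0.11, adjusted p = 1.0e-09).

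The effect at 24 h was set beside those at 6 and 12 h, which come from other libraries. At 12 h 1038 genes were called (6.76%) and at 6 h 236 (1.54%). Of these, 560 were called at 24 and 12 h, 33.1% of the 24 h calls and 53.9% of the 12 h calls, 559 of them with the same sign. Of the 370 genes called at least 2-fold lower at 24 h, 120 were called lower at 12 h and 250 were not called there. The median log2 fold change of interferon effectors was 0.00 at 6 h, -0.45 at 12 h and -2.13 at 24 h. That of Fc and paired receptors was 0.04, -0.70 and -1.83 at these hours, that of leukocyte signalling genes -0.32, -0.30 and -1.12, and that of globins -0.50, -0.54 and -1.98. Arterial and Notch genes had medians of 0.19, 0.36 and 0.32. The difference between the effects at 24 and 12 h was itself tested, and 185 genes were called (1.21%), 29 with a higher and 156 with a lower effect at 24 h. Between 24 and 6 h 319 genes were called (2.08%), 96 higher and 223 lower. Without Dox replicate 2, untreated replicate 1 or untreated replicate 2 of 24 h, the count between 24 and 12 h was 114, 92 and 90.

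Among the genes whose effect differed most from that at 12 h, The log2 fold change of Isg15 was -2.47 ± 0.17 at 24 h and -0.63 ± 0.21 at 12 h, a difference of -1.85 ± 0.28 (adjusted p = 0.00028). Cytip had -3.29 ± 0.30 at 24 h and -1.23 ± 0.30 at 12 h, a difference of -2.07 ± 0.45 (adjusted p = 0.013), and this call was lost without Dox replicate 2 (adjusted p = 0.061) and without untreated replicate 1 (adjusted p = 0.056). Rac2, a GTPase of leukocytes, was not called at 24 h (-0.42 ± 0.19) and was higher with Dox at 12 h (1.33 ± 0.21), a difference of -1.75 ± 0.28 (adjusted p = 0.00050). Frmpd1 had 2.06 ± 0.17 at 24 h and 0.66 ± 0.17 at 12 h, a difference of 1.39 ± 0.24 (adjusted p = 0.0014). In the untreated cells alone, 3440 genes were called between 24 and 12 h (22.4%). That comparison shares the untreated libraries of 24 h with the Dox effect, so the 2 are given side by side and are not related to each other. Isg15 had a log2 fold change of 2.53 ± 0.17, Cytip of 1.41 ± 0.24, Itgam of 2.13 ± 0.17 and Jag2 of -0.043 ± 0.13, untreated cells of 24 h over those of 12 h.

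**Figure D5:**
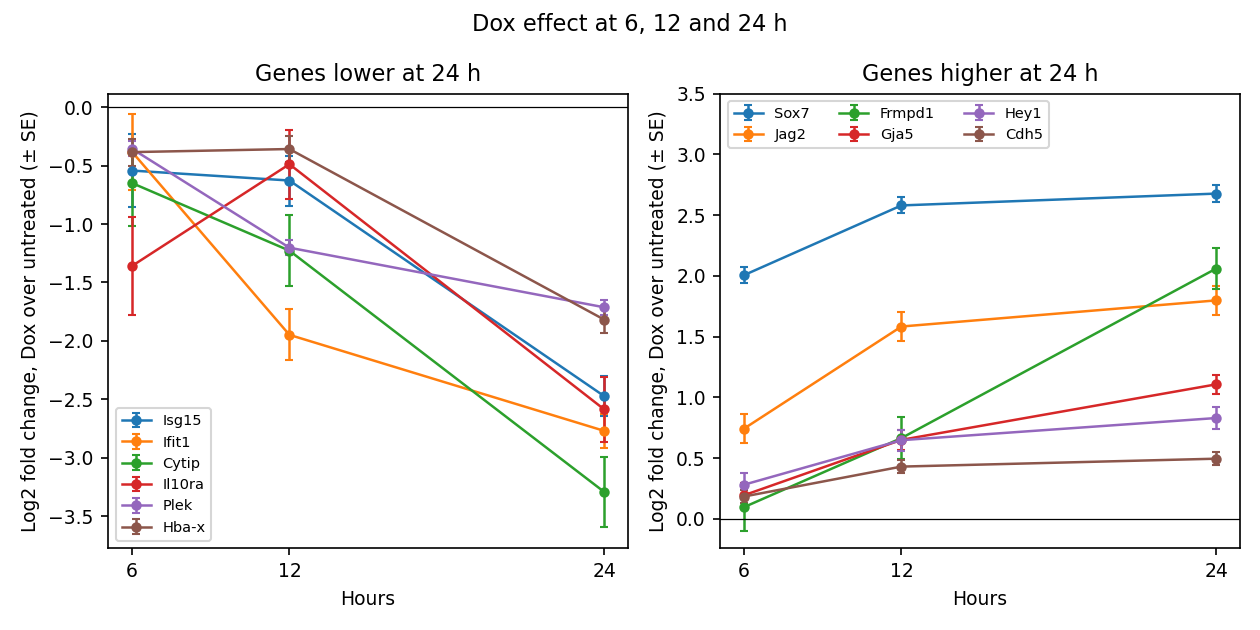
Log2 fold change of Dox over untreated cells at 6, 12 and 24 h (x axis) for 12 genes, with bars of ± SE, falls on the left and rises on the right. Sox7 and Jag2 were already higher at 6 h, while the falls of Isg15, Cytip and Il10ra were larger at 24 h than at 12 h.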

How the data were processed

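RNA from 12 libraries of 6 groups was sequenced with 75-base single reads after a strand-specific preparation from 200 ng of RNA with 14 PCR cycles, per the labels' protocols. Among the tools in the submitters' processing notes are Bowtie2 2.21, edgeR 3.8.5, R 3.1.0, SAMtools 0.1.19 and bcl2fastq 2.16.0.10, and the build named there is GRCm38. How reads were counted per gene, on which strand and with which annotation is not given in the sources used here. This makes values of antisense or overlapping genes, and of near-identical copies, uncertain. Per gene, the authors deposited whole-number read counts and RPKM values for 41128 genes, with gene coordinates. The coordinates printed for windows are those of RefSeq. Library totals ran from 13485804 to 35250074 counts.

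Counts were scaled by the TMM method and genes were kept by filterByExpr over the 6 groups, which left 15347. They were tested with edgeR 4.0.16's quasi-likelihood test in R 4.3.3, in 1 model of the 6 groups, with 6 residual degrees of freedom and a biological coefficient of variation of 4.71%, and p-values were adjusted by Benjamini-Hochberg over all tested genes. The procedure was tested on simulated data. In chi-square tests over genes with at least 50 counts, the 2 libraries of a group differed by more than counting noise. Their variance was 4.24 times the expected one with Dox at 24 h and 2.63 times without. Each library was counted as 1 sample. Neither these tests nor the coefficient of variation can tell separate cultures from separate preparations of 1 culture. Windows before gene starts came from RefSeq.

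Gene lists and members were chosen with earlier results of these data known. Named genes are a fixed set of SOX, RUNX1 and endothelial genes, the 20 largest changes in each direction at a mean log2 CPM of at least 1 without overlap of the libraries, leaving out unnamed models, the 8 largest at a mean log2 CPM of at least 8, the 4 members with the lowest adjusted p in each list, members that go against the list, small families of 10 or fewer, and the 8 largest differences from the 12 h effect in each direction. The lists' own counts hold every tested member. Not every gene this rule takes is printed, and genes named outside it were chosen after their values were seen.

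The alternatives were other scalings (RLE and upper quartile), no filter, a stricter filter of 1 CPM in 4 libraries, a replicate block, the 24 h libraries alone, each 24 h library left out, DESeq2 1.42.0, and limma-trend (limma 3.58.1) on the authors' RPKM as log2(RPKM + 0.5).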

Additional observations from a re-analysis of the deposited data

Results flagged for a closer look

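The 16 results below are differences between the Dox effect at 24 h and that at 12 h, given as log2 differences ± SE. They are the 8 largest in each direction among called genes that average a log2 CPM of 1 or more. Each difference was itself tested with edgeR's quasi-likelihood test, and the adjusted p over all tested genes is given. No explanation of any of them was tested.

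Genes of leukocytes and of the interferon response had a lower effect at 24 h than at 12 h. The largest differences were those of Il10ra (-2.10 ± 0.41, adjusted p = 0.0052), Cytip (-2.07 ± 0.45, adjusted p = 0.013) and Igsf6 (-2.05 ± 0.39, adjusted p = 0.0031), an immunoglobulin-like surface protein. Isg15 (-1.85 ± 0.28, adjusted p = 0.00028) and Xaf1 (-1.80 ± 0.30, adjusted p = 0.00095) are induced by interferon. Fcer1g (-1.82 ± 0.35, adjusted p = 0.0037), Rac2 (-1.75 ± 0.28, adjusted p = 0.00050) and the adult globin gene Hbb-bs (-1.81 ± 0.31, adjusted p = 0.0011) complete them. Of these 8, Cytip lost its call without Dox replicate 2 or untreated replicate 1 of 24 h, and Hbb-bs with limma-trend on RPKM (adjusted p = 0.081). The other 6 kept their calls in the 11 alternatives run for the difference.

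In the other direction, Frmpd1 had the largest difference (1.39 ± 0.24, adjusted p = 0.0014) and kept its call in these 11 alternatives. Lrp2, the endocytic receptor megalin, differed by 0.50 ± 0.088 (adjusted p = 0.0014) and lost its call with limma-trend alone (adjusted p = 0.14). The other 6 rest on single libraries, and each lost its call in 4 to 6 of the alternatives. These are Vgf (0.79 ± 0.20, adjusted p = 0.036), a neuropeptide precursor, Nkx1-2 (0.67 ± 0.15, adjusted p = 0.019), a homeobox factor, and Syt13 (0.64 ± 0.16, adjusted p = 0.031), of the synaptotagmin family. The others are the zinc finger gene Zik1 (0.63 ± 0.16, adjusted p = 0.048), Dph5 (0.58 ± 0.14, adjusted p = 0.034), an enzyme of diphthamide synthesis, and Ctla2a (0.55 ± 0.12, adjusted p = 0.015), a protease inhibitor. All 6 lost their calls with DESeq2 and with limma-trend. Without Dox replicate 2, untreated replicate 1 and untreated replicate 2 of 24 h the adjusted p of Vgf was 0.17, 0.14 and 0.097 and that of Zik1 0.22, 0.24 and 0.052. Without Dox replicate 1, untreated replicate 1 and untreated replicate 2 that of Dph5 was 0.13, 0.070 and 0.21 and that of Ctla2a 0.10, 0.077 and 0.11. Nkx1-2 had 0.059 without Dox replicate 1 and 0.12 without untreated replicate 1, and Syt13 had 0.16 without Dox replicate 2 and 0.27 without untreated replicate 2. At 24 h itself Vgf, Zik1 and Dph5 were not called, with 0.27 ± 0.14, 0.34 ± 0.12 and 0.31 ± 0.10.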

How the results depend on the processing

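The 1690 calls at 24 h, 690 higher and 1000 lower, numbered 1692 with RLE scaling, 1702 with upper-quartile scaling, 1702 with no filter, 1566 with the stricter filter, 1743 with the 24 h libraries alone, 1300 with DESeq2 and 1321 with limma-trend on RPKM. Of them 1285 were also called by DESeq2 and 1232 by limma-trend. Limma-trend called 449 higher and 183 at least 2-fold, against 442 at least 2-fold by edgeR, and its fold changes are on the log2(RPKM + 0.5) scale, which understates low genes. With 1 library left out, the fit assumed that the lone library of its group varied like the other groups. The count was then 1084 to 1497 in all, 392 to 724 higher, 618 to 773 lower and 352 to 424 at least 2-fold. The share of higher genes among the calls was 40.8%, and 34.0% to 48.4% over the alternatives. The 185 genes whose effect differed between 24 and 12 h numbered 356 with no filter, 66 with limma-trend and 90 to 202 with 1 library left out. The cause of these changes was not tested.

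With the replicate block 1722 genes were called, 705 higher and 1017 lower, 463 of them at least 2-fold and 1644 shared with the fit without the block. The numbers do not pair the libraries. The deviations of same-numbered Dox and untreated libraries of 24 h correlated across genes with r = 0.034, and the 15 pairs of groups gave r from -0.17 to 0.17.

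Among the genes named here and above, the sign turned for a pair of uncalled ones, Sox17 (-0.019 to 0.15 with 1 library left out) and Ifnar2 (-0.32 to 0.031). Calls of these genes that ended with 1 library left out stand beside their values, except that of Dhcr7, which ended without Dox replicate 2 and without either untreated replicate. DESeq2 did not call Cybb, Hbb-bh1, Hbb-y, Lama2, Sox2 or Sox18 (adjusted p = 0.16, 0.085, 0.29, 0.070, 0.062 and 0.083). Limma-trend did not call Col4a1, Dhcr7, Hbb-bh1, Hbb-y, Lama2, Nrp1, Sox2, Sox6 or Sox18 (adjusted p = 0.074, 0.059, 0.080, 0.26, 0.22, 0.060, 0.077, 0.069 and 0.059). Calls at 24 h were gained by Runx1, as given above, by Zik1 without Dox replicate 1 or untreated replicate 2, and by Dph5 with either other scaling or the stricter filter. Of the counts of list members, 97 moved by more than 1.5 times and 635 did not. With 2 libraries a group, a gene that was not called is not shown to be unchanged.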

Other observations

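Potassium channels set the membrane potential of the cell, and much of the family was too low to test. Of its 92 deposited genes, 44 were tested, of which 3 were called higher and 6 lower with Dox. Kcnj2, an inward rectifier of muscle and endothelium, had 7.36 and 6.96 CPM in the Dox libraries, against 14.7 and 17.8 CPM in the untreated libraries, with no overlap (-1.19 ± 0.14, adjusted p = 2.5e-07 by edgeR's quasi-likelihood test). Kcnj5, a rectifier opened by G proteins, had 4.70 and 3.95 CPM in the Dox libraries, against 11.2 and 8.89 CPM in the untreated libraries (-1.16 ± 0.17). Kcnn4, the calcium-activated channel of red cells and leukocytes, had 2.07 and 1.94 CPM in the Dox libraries, against 4.65 and 4.92 CPM in the untreated libraries (-1.25 ± 0.26). Kcnq5 went the other way, with 11.1 and 10.8 CPM in the Dox libraries, against 7.15 and 7.59 CPM in the untreated libraries (0.57 ± 0.13). The calls of these 4 genes held in the 12 alternatives run.

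Among 17 tested imprinted genes of growth control 2 were called, both lower, a share near the 11.0% of all tested genes. The count was 1 without Dox replicate 1, untreated replicate 1 or untreated replicate 2 and with limma-trend, and 3 without Dox replicate 2 and with DESeq2. Dlk1, a non-canonical Notch ligand, had 152 and 140.0 CPM in the Dox libraries, against 241 and 234 CPM in the untreated libraries, without overlap (-0.70 ± 0.082, adjusted p = 2.4e-07 by edgeR's quasi-likelihood test). Of 11 tested complement and scavenger receptors 2 fell, Lyve1, described above, and C3ar1, the receptor of complement fragment C3a, which had 15.4 and 15.1 CPM in the Dox libraries, against 34.2 and 29.9 CPM in the untreated libraries (-1.06 ± 0.11). Genes of cholesterol and fatty acid synthesis had 6 of 27 called lower and none higher by edgeR, DESeq2 or limma-trend, with log2 fold changes no larger than that of Dhcr7 (-0.21 ± 0.063). These calls were not stable, with 0 made without untreated replicate 1, 0 without untreated replicate 2, 2 without Dox replicate 1 and 1 without Dox replicate 2. Lin28a, an RNA-binding protein of stem cells, had 301 and 307 CPM in the Dox libraries, against 209.5 and 224 CPM in the untreated libraries (0.49 ± 0.056). Of 9 tested pluripotency genes it was the only 1 that rose and 2 fell, among them Sox2, with a median of -0.33.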
